A study of Homo sapiens with 6 samples.

Results

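The genes described here are 9 genes of the HLA class I antigen presentation pathway. They are the heavy chain genes HLA-B, HLA-C, HLA-E and HLA-F, the light chain gene B2M, the peptide transporter genes TAP1 and TAP2, the loading factor gene TAPBP and the regulator gene NLRC5. The 9 were chosen by name and by their presence among the 28979 gene IDs of the count tables. They were proposed with earlier Ang and Con values of these libraries known, among them those of TAP2. Their differences between the groups are therefore given as descriptions that support no claim.

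The counts come from RNA sequencing of MDA-MB-231, an established human breast cancer cell line. By their labels, 3 libraries were Con and 3 were Ang. Per the series design, these cells received exosomes, small vesicles released by cells, of normal or of hypertrophic cardiomyocytes. The labels leave the meaning of Con and Ang, the dose and the time unstated, and do not say that replicates were separate cultures. P-values and intervals therefore cover only the spread from library to library, which may be technical.

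Class I molecules display peptides from inside the cell to CD8 T cells and to natural killer cells. A heavy chain pairs with beta-2-microglobulin in the endoplasmic reticulum, where TAP1 and TAP2 together form the pump that brings peptides in from the cytosol. Tapasin, the product of TAPBP, holds the empty heavy chain at this pump until a peptide is bound. NLRC5 acts in the nucleus as the transactivator of class I genes through a conserved promoter module of S, X and Y boxes, and interferon gamma raises the whole set. Tumour cells often lower this pathway, and so become harder for T cells to see.

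The promoter module is shown for 3 members because it is the shared sequence that links NLRC5 to them. RefSeq promoter entries (GRCh38.p14) matched 7 of the 9 members, and HLA-E and NLRC5 are named only. The stretches below run from 190 to 41 bases before the RefSeq start site, 5′ to 3′ on the gene's strand. They are chr6:31357220-31357369 on the minus strand for HLA-B, chr6:31272133-31272282 on the minus strand for HLA-C and chr15:44711327-44711476 on the plus strand for B2M. Capitals mark the letters TGACG (core of the X2 box), ATTGG or its complement CCAAT (Y box), GAAANNGAA (an interferon response element) and GGATTCCCC (the kB site of enhancer A), searched on both strands.
HLA-B: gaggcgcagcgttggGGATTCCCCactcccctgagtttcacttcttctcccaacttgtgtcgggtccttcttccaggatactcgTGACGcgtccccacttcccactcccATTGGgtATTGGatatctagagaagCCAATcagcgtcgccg
HLA-C: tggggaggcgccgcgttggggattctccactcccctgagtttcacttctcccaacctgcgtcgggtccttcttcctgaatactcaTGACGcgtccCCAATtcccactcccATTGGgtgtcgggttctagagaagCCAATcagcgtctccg
B2M: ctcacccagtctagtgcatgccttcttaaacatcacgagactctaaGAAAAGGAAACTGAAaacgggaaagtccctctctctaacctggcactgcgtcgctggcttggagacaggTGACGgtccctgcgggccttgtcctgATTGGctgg

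All 3 stretches held TGACG followed by ATTGG on the gene's strand. The motifs began 106 and 81 bases before the start site in HLA-B, 105 and 80 in HLA-C, and 75 and 49 in B2M, so 25, 25 and 26 bases apart. Over 35116 promoter entries, 21.2% held TGACG and 32.0% held ATTGG within 250 bases before the start site. The order TGACG then ATTGG at 24 to 27 bases, a spacing set after these sequences were seen, occurred in 0.208% of entries, and among the 7 matched members in these 3. GAAANNGAA was present in 6.88% of entries. Among the members it was an overlapping pair in TAP1, TAPBP and B2M and single in TAP2 and HLA-F. For TAP1 the pair lay in the entry at chr6:32853745-32853894, while another TAP1 entry (chr6:32852802-32852951) held no GAAANNGAA. GGATTCCCC was present in 0.308% of entries and, of the 7 members, in HLA-B. The 250 bases before the start were 89.0% identical between HLA-B and HLA-C, 80.4% between HLA-B and HLA-F, and 46.6% between HLA-B and B2M. Pairs of members that were not both heavy chain genes ran from 42.5% (TAP2 and B2M) to 49.0% (TAP2 and TAP1). The 46.6% thus marks no likeness beyond that of other such pairs. A match describes letters and is not a site in use, and the lack of an exact match does not show that an element is absent.

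Total counts were 3369212 to 5437190 per library, and the 9 members together held 1622 to 3811 of them. Levels are given as CPM, the reads of a gene per 1000000 reads on tested genes, with library sizes scaled by the TMM method of edgeR, and levels of different genes are compared only per kilobase of exon. MDA-MB-231 markers were high, with VIM at 928 ± 152 (Con) and 1033 ± 49.6 CPM (Ang) (SD, n = 3 each), while ESR1 had 7 counts over all 6 libraries. All 8 markers of the cell line had a higher mean in Ang, as the members did, with a summed level of 2406 to 3173 CPM in Con and 3013 to 3188 CPM in Ang. The part of this in the members' values was not tested. KRT8, an epithelial keratin gene, was also abundant, at 955 ± 130 and 987 ± 11.1 CPM. Of 12 leukocyte markers 7 were matched, with a summed level of 9.08 to 17.6 CPM in Con and 11.1 to 13.2 CPM in Ang. Of 10 cardiomyocyte markers 6 were matched, at 7.18 to 19.2 and 6.56 to 12.7 CPM. In bulk RNA, fewer cells with a transcript and less of it per cell cannot be told apart.

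The strand of the reads bears on each level. The protocol names no step that marks strand, and the strand setting of the counter is not given in the sources used here. Over 250 non-coding genes that lie under a protein-coding gene on the other strand, the non-coding gene had a median of 32.5 times the counts per base of the coding gene. By library, in the order of the replicate numbers, this strand ratio was 39.3, 23.2 and 41.1 for Con and 35.0, 32.9 and 35.4 for Ang, so Con replicate 2 stood lowest. Counts given to a gene may thus not be reads of its own RNA, which leaves the absolute amounts below uncertain. The same limit holds for the ranks among protein-coding genes and for the Ang against Con folds.

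Per kilobase of exon, the members spanned about the whole range of tested protein-coding genes, with the cell surface chains near the top and the regulator near the bottom. HLA-E averaged 46.2 CPM per kilobase over the 6 libraries, above 96.0% of 11107 tested protein-coding genes. HLA-B followed at 30.6, B2M at 27.9, HLA-C at 20.9 and TAPBP at 15.7 CPM per kilobase. HLA-F had 8.20, TAP1 4.93, TAP2 1.84 and NLRC5 0.408 CPM per kilobase, the last above 2.20% of the same genes. Library values of HLA-E did not overlap those of HLA-B. Those of HLA-B and B2M, of B2M and HLA-C, and of HLA-C and TAPBP overlapped, so the order within each of these pairs is not beyond their spread over libraries. Within libraries, HLA-B was above B2M in 5 of 6, B2M above HLA-C in 6 of 6 and HLA-C above TAPBP in 6 of 6. From TAPBP to HLA-F, to TAP1, to TAP2 and to NLRC5 the ranges were separate at each step. These levels use all annotated exon bases of a gene, 6079 for B2M, 3051 for HLA-B and 2975 for HLA-E. The longest coding transcripts of these genes have 1705, 1547 and 2601 bases. Both the order of the members and the percentages above depend on the length used. By these transcript lengths B2M stands above HLA-E, with more CPM on average (170 against 137) over a shorter transcript. HLA-E is thus the top member by exon bases only, and the full order by transcript length was not worked out.

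**Figure D1:**
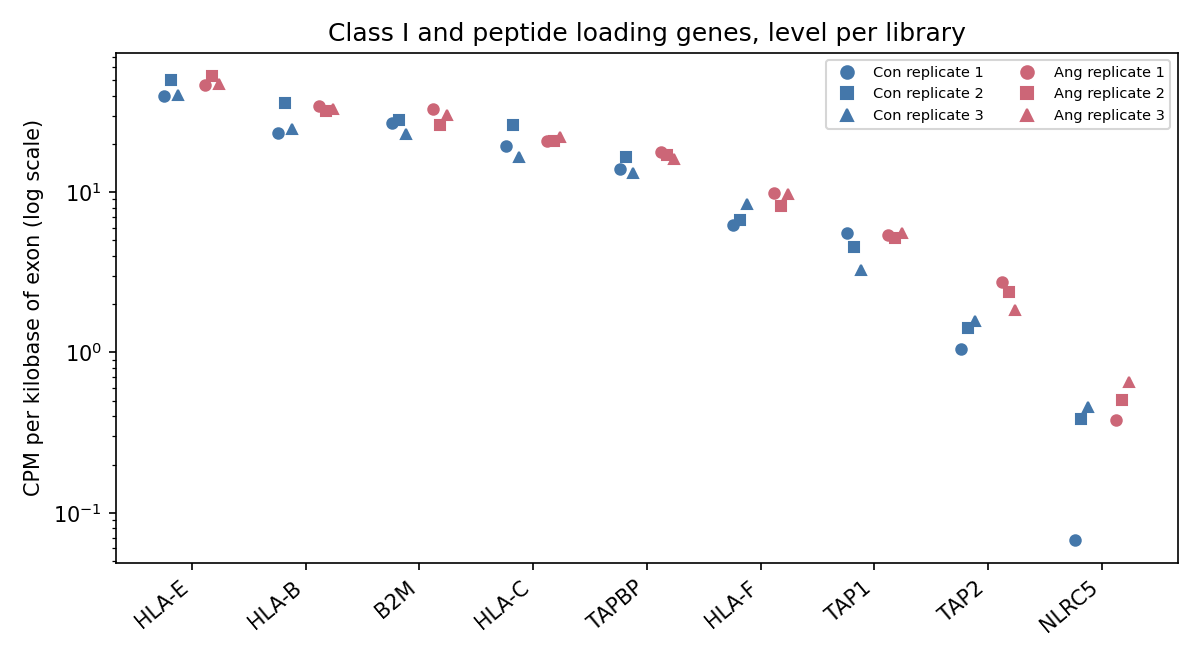
Level of each member per library, in CPM per kilobase of exon on a log axis. Points are single libraries, blue for Con and red for Ang, with a marker shape per replicate. HLA-E averages 46.2 and NLRC5 0.408 CPM per kilobase, and TAP2 is the member whose Ang points all lie above its Con points.

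Classical heavy chains, which present peptides to CD8 T cells, come first. HLA-B (ENSG00000234745, chromosome 6, 31269491 to 31357188, minus strand) had 71.0, 109 and 75.5 CPM in Con and 105, 98.3 and 101 CPM in Ang, here and below in the order of the replicate numbers. Con replicate 2 was the highest of the 6 libraries, and the other Con libraries lay below all Ang libraries. The fitted fold was 1.19, with a 95% interval of 0.925 to 1.52.

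HLA-C (ENSG00000204525, chromosome 6, 31268749 to 31272130, minus strand) had 48.4, 65.3 and 41.2 CPM in Con and 52.5, 52.2 and 55.2 CPM in Ang. Here too Con replicate 2 was highest, and the Ang libraries lay inside the Con range. The fold was 1.03 (0.774 to 1.36), the smallest of the 9, and it turned below 1 without Con replicate 1 or without Con replicate 3. The annotated HLA-B and HLA-C exons share 35 bases on the same strand, and their transcripts share some sequence with those of other genes. Of 50-base windows of the longest coding transcript, 2.54% in HLA-B and 6.71% in HLA-C also occurred in another gene's transcripts, against 0% and 0.275% of 100-base windows.

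Both nonclassical heavy chains in the set were measured as well. HLA-E (ENSG00000204592, chromosome 6, 30489467 to 30494205, plus strand), whose product is read by NKG2 receptors of natural killer cells, had 118, 149 and 120 CPM in Con and 138, 157 and 141 CPM in Ang. Con replicate 2 lay among the Ang libraries and the other Con libraries below them. The fold was 1.13 (0.886 to 1.43).

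HLA-F (ENSG00000204642, chromosome 6, 29722775 to 29738528, plus strand), a nonclassical chain with restricted surface display, had 27.2, 29.1 and 36.5 CPM in Con and 42.8, 35.6 and 42.5 CPM in Ang. The groups overlapped through a single pair, Con replicate 3 and Ang replicate 2. The fold was 1.31 (0.948 to 1.80).

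B2M (ENSG00000166710, chromosome 15, 44711487 to 44718877, plus strand), the light chain of every class I molecule, had 163, 172 and 139 CPM in Con and 201, 160 and 184 CPM in Ang. Ang replicate 2 lay below Con replicates 1 and 2, so the groups overlapped. The fold was 1.15 (0.906 to 1.46). No B2M window of 50 bases occurred in another gene's transcripts, and no exon on the other strand overlaps it in GENCODE 29.

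Of the peptide pump, TAP2 (ENSG00000204267, chromosome 6, 32821833 to 32838780, minus strand) had 32, 54 and 32 counts in Con and 60, 60 and 41 counts in Ang. Scaled, these were 6.76, 9.13 and 10.1 CPM in Con and 17.6, 15.1 and 11.8 CPM in Ang. All 3 Ang libraries lay above all 3 Con libraries, the only such member. Among all 14547 tested genes 3.62% showed this and 4.54% showed the opposite order, with all Ang libraries below all Con libraries. The fold was 1.72 (1.05 to 2.83), an interval for a single gene that takes no account of the other genes tested. The annotated readthrough gene ENSG00000250264 lies on the same strand, and 35.2% of the 100-base windows of TAP2 also occur in it.

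TAP1 (ENSG00000168394, chromosome 6, 32845209 to 32853978, minus strand), the partner subunit of TAP2, had 26.6, 22.0 and 15.7 CPM in Con and 26.1, 24.7 and 26.9 CPM in Ang. Con replicate 3 stood low, and Con replicate 1 lay between the Ang libraries. The fold was 1.20 (0.829 to 1.73).

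TAPBP (ENSG00000231925, chromosome 6, 33299694 to 33314387, minus strand), the tapasin gene, had 70.7, 84.0 and 66.1 CPM in Con and 89.5, 86.0 and 80.9 CPM in Ang. Con replicate 2 lay above Ang replicate 3, and the other Con libraries lay below all Ang libraries. The fold was 1.16 (0.898 to 1.49).

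NLRC5 (ENSG00000140853, chromosome 16, 56989485 to 57083531, plus strand) was the least counted member, with 4, 28 and 18 counts in Con and 16, 25 and 28 counts in Ang. These were 0.845, 4.73 and 5.66 CPM in Con and 4.69, 6.30 and 8.09 CPM in Ang. A count of 0 would allow up to 0.552 to 0.890 CPM in these libraries, so Con replicate 1 was close to the limit of detection. The fold was 1.72 (0.788 to 3.74), and the log2 fold change of 0.78 ± 0.57 (SE) became 0.30 ± 0.56 without Con replicate 1, 1.14 ± 0.65 without Con replicate 3 and 1.38 ± 0.68 with library quality weights. At this depth neither a 2-fold change nor its absence could be shown for NLRC5.

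None of the 9 members passed the test. All 9 passed the filter on low counts. The quasi-likelihood test of edgeR, adjusted by Benjamini-Hochberg over 14547 genes, called 0 members (smallest adjusted p 0.999), against 0% of all tested genes. At an unadjusted p under 0.05 there were 1 member, TAP2, and 494 genes in all, and DESeq2 and limma-voom also called 0 members. All 9 log2 fold changes were above 0, with a median of 0.25 and a range from 0.04 in HLA-C to 0.79 in TAP2. Over all tested genes 49.2% were above 0 and the median was -0.01. For 7 of the 9 members the 95% interval lay within 2-fold in both directions, the exceptions being TAP2 and NLRC5.

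**Figure D2:**
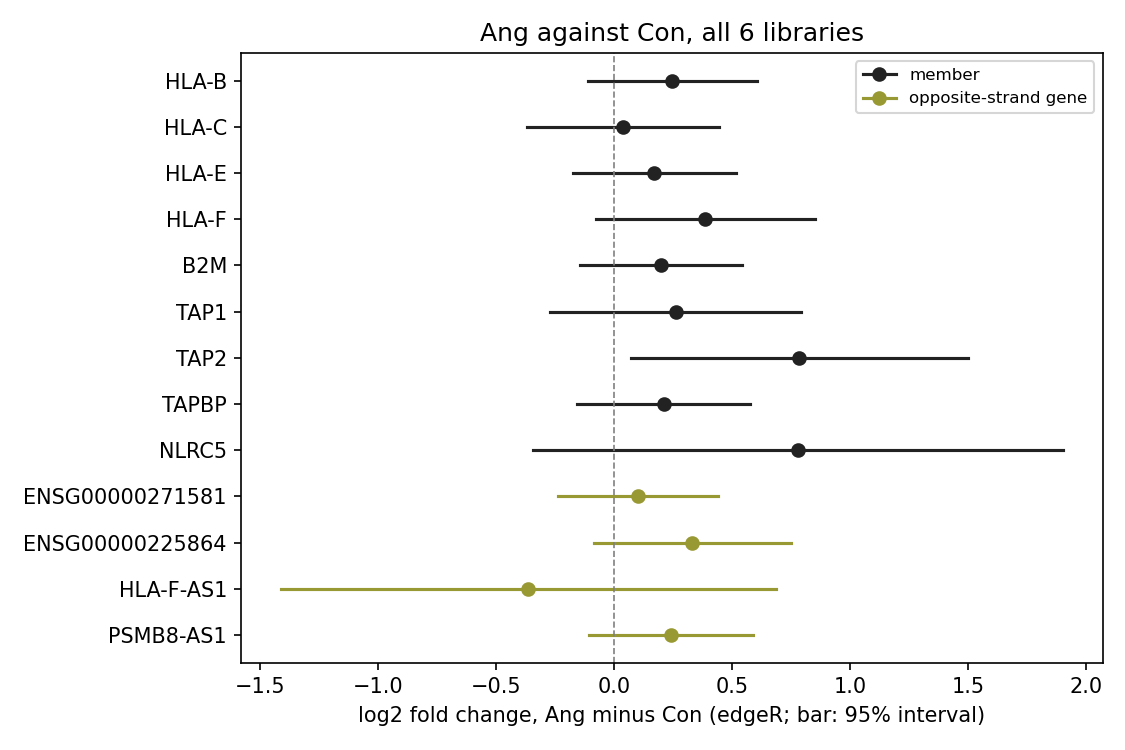
Log2 fold change of Ang minus Con for the 9 members (black) and for 4 genes with exons on the other strand of a member (olive). Points are edgeR estimates and bars are 95% intervals; TAP2 at 0.79 has an interval above 0, before any adjustment for the 14547 genes tested.

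In each of the 9 members, the lowest library was a Con library, Con replicate 1 for 5 members and Con replicate 3 for 4, and 58.3% of all tested genes were lowest in a Con library. The highest was an Ang library for 7 members and for 40.9% of all tested genes, and Con replicate 2 for HLA-B and HLA-C. These counts describe members proposed with their values known. The summed level was 532, 644 and 510 CPM in Con and 678, 635 and 651 CPM in Ang, so Con replicate 2 lay among the Ang libraries. The SD was larger in Con than in Ang for 7 of the 9 members, the exceptions being B2M and TAP2, and for 63.1% of all tested genes. The chi-square per gene between libraries was 6.79 to 12.8 within Con, with both pairs that hold Con replicate 2 at the upper end, and 3.60 to 3.92 within Ang. It was computed on raw counts and can rise with depth, and Con replicate 2 was the deepest library (5437190 counts). The part of depth in these values was not tested. For HLA-B the spread was 24.5% of the mean in Con and 3.32% in Ang, and for HLA-C it was 23.9% and 3.06%. Con replicate 2 is also the library with the lowest strand ratio, 23.2. With the strand ratio as a term in the fit, the log2 fold change of HLA-B was 0.31 ± 0.13, beside 0.25 ± 0.18 without. HLA-C had 0.09 ± 0.17, beside 0.04 ± 0.21, and HLA-F 0.38 ± 0.21, beside 0.39 ± 0.24. That fit called 0 members, and the cause of the spread was not tested. Without Con replicate 2, HLA-B had a log2 fold change of 0.47 ± 0.16 and an edgeR adjusted p of 0.182, the smallest of any member under any alternative, with TAP2 at 0.84 ± 0.39 (adjusted p 0.397).

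**Figure D3:**
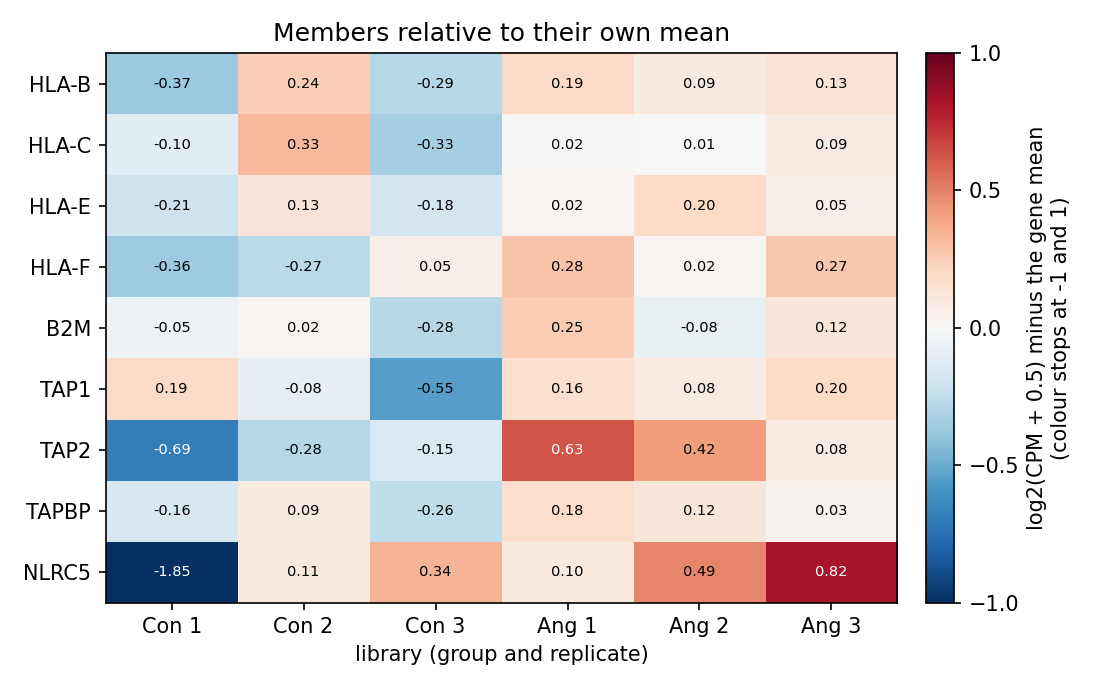
Members (rows) by library (columns), as log2(CPM + 0.5) minus the mean of the gene over the 6 libraries. Red is above and blue below that mean; Con replicates 1 and 3 are below it for most members, at -0.40 and -0.18 on average, Con replicate 2 is at 0.03, and the Ang libraries are at 0.15 to 0.20.

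Genes with exons on the other strand held more counts per base than the members they overlap in 3 of 4 cases. Such exons cover part of 3 members (17.8% of the HLA-B exon bases, 16.1% and 12.3% of those of HLA-F under partners with counts, and 9.49% of those of TAP1), and the other 6 have none in GENCODE 29. The pseudogene ENSG00000271581 (chromosome 6, 31356647 to 31357637, plus strand), which spans the HLA-B promoter stretch printed above, had 323, 237 and 327 CPM in Con and 309, 304 and 337 CPM in Ang. Per base this was 14.0, 6.68 and 13.3 times the HLA-B counts in Con and 9.06, 9.53 and 10.2 times in Ang. Where HLA-B was highest, in Con replicate 2, ENSG00000271581 was lowest. The log2 fold change of ENSG00000271581 was 0.10 ± 0.17, and the Ang over Con ratio of the mean level of HLA-B was 1.19 alone and 1.10 with the counts of both genes added. Most of that sum is ENSG00000271581 (306 CPM on average, against 93.4 CPM for HLA-B), whose own ratio was 1.07. The summed ratio therefore says little about HLA-B.

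At HLA-F the pseudogene ENSG00000225864 (chromosome 6, 29722981 to 29723971, minus strand) had 35.5, 41.1 and 53.2 CPM in Con and 62.2, 51.4 and 48.8 CPM in Ang, or 5.04 to 6.38 times the HLA-F counts per base. Con replicate 3 was the highest Con library for both HLA-F and ENSG00000225864, and Ang replicate 1 the highest of the 6 for both. The log2 fold change of ENSG00000225864 was 0.33 ± 0.21, beside 0.39 ± 0.24 for HLA-F. HLA-F-AS1, the annotated antisense RNA gene, was sparse at 5.91 ± 1.95 (Con) and 4.67 ± 1.81 CPM (Ang), 0.0848 to 0.272 times HLA-F per base.

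At TAP1 the non-coding gene PSMB8-AS1 (chromosome 6, 32844086 to 32846495, plus strand) had 138, 108 and 146 CPM in Con and 149, 139 and 174 CPM in Ang. This was 12.1 to 22.8 times the TAP1 counts per base, with the highest ratio in Con replicate 3, where TAP1 was lowest. Its log2 fold change was 0.24 ± 0.18. None of these 4 genes was called by the edgeR test (adjusted p 0.999 each). The strand setting of the counter is not given, and whether counts of these genes are reads of the members was not tested.

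**Figure D4:**
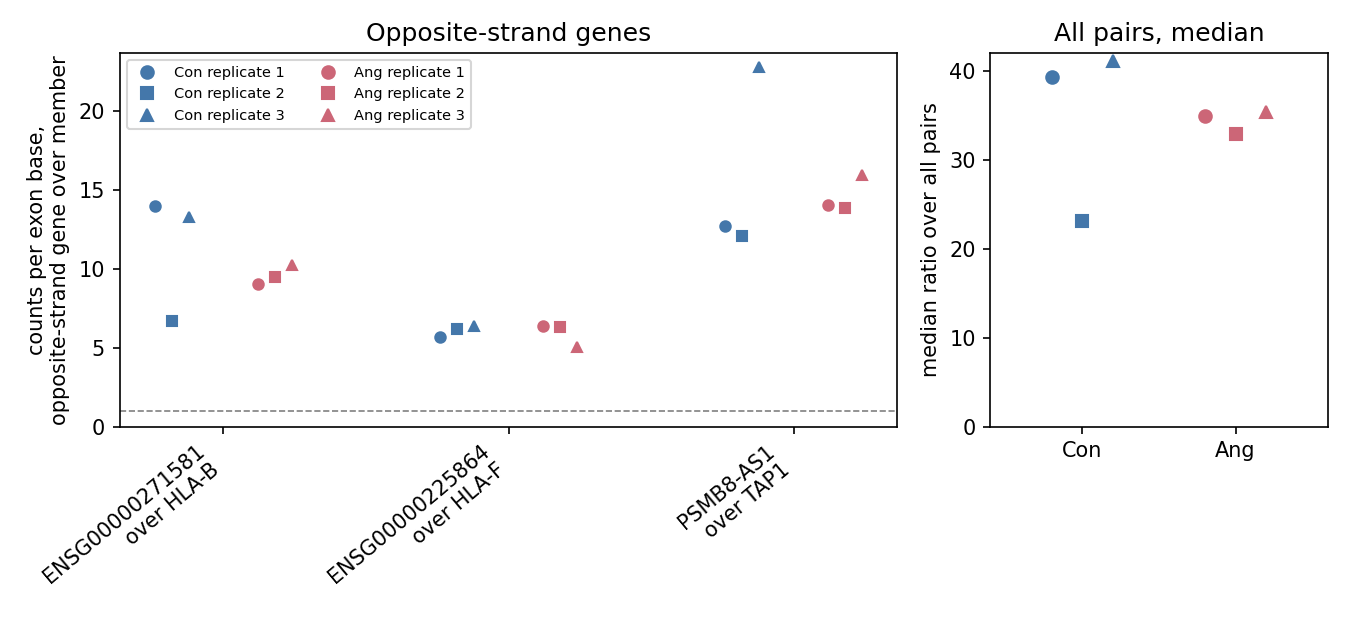
Left, counts per exon base of an opposite-strand gene over those of the member it overlaps, per library, with a dashed line at 1; HLA-F-AS1, below 1, is not drawn. Right, the median of the same ratio over 250 pairs of all genes. Con replicate 2 is lowest for HLA-B (6.68) and over all pairs (23.2).

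Most other genes of the pathway had values near or below 0. Of 77 genes in 5 lists of the class I pathway, 63 were tested and 0 were called in either direction. When Con replicate 2 was left out, 1 of them was called, beside 40 of all genes, and with the strand ratio as a term in the fit 1 of them and 4 of all genes. Of these 63 log2 fold changes 23 were above 0, and their median was -0.05. Among them 2 had all Ang libraries above and 2 all Ang libraries below all Con libraries, against 3.62% and 4.54% of all tested genes.

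The list of other heavy chains and class I-like genes had 5 of 11 tested members above 0 and a median of -0.13. HLA-L and HLA-J are class I pseudogenes of the same chromosome region. HLA-L had 101 ± 13.0 (Con) and 91.9 ± 17.2 CPM (Ang), and HLA-J 26.3 ± 8.18 and 19.5 ± 2.99 CPM, with 48.9% of HLA-J exon bases under exons of the other strand. MR1, which presents vitamin B metabolites, had 9.08 ± 2.86 and 6.25 ± 1.72 CPM. HLA-G, the class I gene of the placenta, had too few counts to be tested.

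Peptides are cut by the proteasome and trimmed by aminopeptidases, and that list had 7 of 16 members above 0, with a median of -0.02. ERAP1, the main trimming enzyme of the endoplasmic reticulum, had 561 ± 115 (Con) and 571 ± 1.62 CPM (Ang). Its relative ERAP2 had 7.38 ± 1.21 and 4.92 ± 4.37 CPM, with Ang values of 1.47, 9.83 and 3.47 CPM. The log2 fold change of ERAP2 was -0.56 ± 0.50, and -1.57 ± 0.66 without Ang replicate 2. The proteasome activator subunits PSME1 and PSME2 had 54.5 ± 11.4 and 36.7 ± 2.34 CPM in Con and 58.2 ± 9.09 and 30.4 ± 3.31 CPM in Ang. PSME2 lay lower in every Ang library than in any Con library. HM13, a signal peptide peptidase that helps supply HLA-E with leader peptides, had 78.8 ± 24.9 and 68.3 ± 12.6 CPM. The immunoproteasome subunits, induced by interferon together with TAP1, were sparse. PSMB8 had 8.88 ± 4.12 and 8.47 ± 3.72 CPM and PSMB9 1.97 ± 1.76 and 2.23 ± 2.26 CPM, both named after their values were seen. Exons of the other strand cover 20.6% of the PSMB8 exon bases, with the largest overlap from PSMB8-AS1. That gene had 463 to 652 counts per library, against 14 to 74 for PSMB8, so the low level of PSMB8 is uncertain.

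Folding and loading chaperones had 3 of 8 members above 0 and a median of -0.04. HSPA5, the lumenal HSP70 chaperone, had 1534 ± 114 (Con) and 1466 ± 18.8 CPM (Ang). CALR, which holds heavy chains in the loading complex beside tapasin, had 739 ± 101 and 775 ± 59.2 CPM. MOGS, a glucosidase of the same quality control cycle, had 19.8 ± 5.95 and 17.7 ± 3.56 CPM.

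Regulators of class I transcription had 5 of 22 tested members above 0 and a median of -0.07. IRF1, an interferon-induced activator of class I promoters, had 40.1 ± 5.32 (Con) and 33.8 ± 7.65 CPM (Ang). RFX5 and RFXANK, subunits of the complex that NLRC5 joins at the X box, had 25.5 ± 2.32 and 34.3 ± 4.38 CPM in Con and 20.4 ± 5.76 and 33.7 ± 10.6 CPM in Ang. IFNGR2, a chain of the interferon gamma receptor, had 43.8 ± 4.91 and 54.2 ± 5.22 CPM (0.31 ± 0.21 on the log2 scale).

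The list named for class I turnover and surface masking had 3 of 6 tested members above 0, with a median of -0.04. The widest differences in it stood in related ubiquitin ligase genes with opposite signs, whose action on class I was not examined here. MARCHF1 had 47.4 ± 6.47 (Con) and 30.7 ± 8.60 CPM (Ang) (-0.62 ± 0.23), with all Ang libraries below all Con libraries. MARCHF8 had 8.96 ± 0.887 and 16.3 ± 3.43 CPM (0.86 ± 0.35), with all Ang libraries above. Neither passed the edgeR test (adjusted p 0.999 each). WWP2 had 9.80 ± 2.94 and 14.0 ± 3.60 CPM, and TMEM127, an adaptor of that ligase in class I degradation, 17.8 ± 5.42 and 14.5 ± 5.45 CPM.

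**Figure D5:**
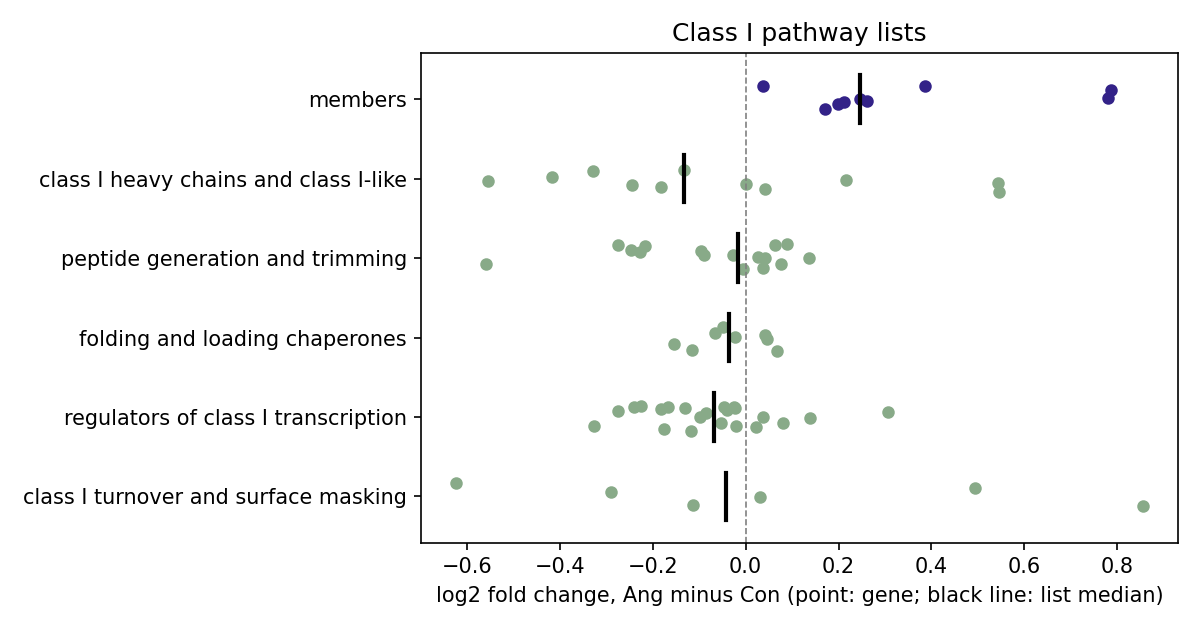
Log2 fold change of Ang minus Con for each tested gene (points) of the members and of the 5 pathway lists, with list medians as black lines. All 9 members lie above 0, with a median of 0.25, while the medians of the 5 lists lie between -0.13 and -0.02; no gene shown passed the test.

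Some genes outside the pathway followed a like course over the libraries. Among 7642 protein-coding genes of at least 10 CPM, the 5 nearest to the mean centred log2 CPM of the members were GSTK1, HMGXB3, BIN1, PIGH and SHROOM3. Their root mean square difference from it over the 6 libraries was 0.0661 to 0.0733, smaller than that of any single member, which ran from 0.104 for HLA-B to 0.695 for NLRC5. GSTK1 had 19.8 ± 3.75 (Con) and 25.1 ± 0.831 CPM (Ang), and BIN1 29.5 ± 4.91 and 40.5 ± 3.08 CPM. These 5 genes were picked for a small difference and the members were not, so the closeness of the 5 follows from the choice. The likeness is a description of 6 libraries.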

How the data were processed

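Messenger RNA of MDA-MB-231 cells was selected on poly-T beads and primed with random oligonucleotides, per the labels' protocols. The authors deposited raw counts of reads, 1 table per library with Ensembl gene IDs. HTSeq 0.9.1 and DESeq 1.39.0, with genome build GRCh38, are named in the submitters' processing notes. For the aligner, the annotation release and the counter's strand setting: not given in the sources used here. Of 28979 IDs, 28192 matched GENCODE 29 (GRCh38), which gave coordinates and exon lengths.

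Counts were tested with edgeR 4.0.16 in R 4.3.3 (filterByExpr, trimmed mean of M values, robust quasi-likelihood test, Ang against Con, Benjamini-Hochberg adjustment at 0.05, no replicate term). SE and 95% intervals come from that fit, and SD is over 3 libraries. A gene with counts was a partner if its exons lay over at least 1% of a member's exon bases on the other strand; RPL23AP1, over 5.92% of those of HLA-F, was not analysed here. No libraries were identical, and chi-square per gene was 6.79 to 12.8 within Con and 3.60 to 3.92 within Ang, above sampling noise. PCR reads are not independent molecules, so the floor of 3 counts covers counting error only.

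The members and lists were chosen with earlier results of these data known. Named genes were the members, their partners, 3 genes by smallest p and 2 by level per list, and the 5 nearest genes. For 1 gene named by this rule, which stays in its list's counts, values are not reported here. Alternatives were DESeq2 1.42.0, limma-voom 3.58.1, library quality weights, other scaling and filters, a replicate block, a strand ratio term, other level scales and leaving out each library.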

Additional observations from a re-analysis of the deposited data

How the results depend on the processing

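The count of called members was 0 under each of the 14 alternatives run, and the log2 fold changes of 8 members kept their sign in all of them. HLA-C ran from -0.10 to 0.25 when a library was left out, and was below 0 without Con replicate 1 (-0.02) or 3 (-0.10). Over all genes, 0 were called at first, 4 with the strand ratio term, 1 with library quality weights, and 0 to 40 leaving out a library (40 when Con replicate 2 was out, 1 when Con replicate 1 was out). Of the pathway genes, 0 were called at first, 1 with the strand ratio term, and 0 to 1 leaving out a library, the 1 when Con replicate 2 was out. The cause was not tested. Signs also turned, with no call, when a library was left out for ENSG00000271581 (-0.035 to 0.17), HLA-L (-0.23 to 0.016), PSME1 (-0.049 to 0.28), ERAP1 (-0.13 to 0.14, and -0.026 with quality weights), HM13 (-0.43 to 0.034), CALR (-0.024 to 0.18), MOGS (-0.39 to 0.052) and RFXANK (-0.21 to 0.22). In all, 447 of 462 alternative values of named genes kept sign and side of the threshold. Same-numbered replicates deviated from their group means with correlations of 0.037, 0.068 and 0.036, and differently numbered ones with -0.070 to 0.030. All are small, with the same-numbered ones highest, and 3 libraries per group cannot settle whether the numbers pair the libraries. The replicate block called 0 genes, 0 members and 0 pathway genes. At an unadjusted edgeR p under 0.05 it had 574 genes, against 494 in the main fit. Depth limits NLRC5 and TAP2, with 119 and 279 counts over all libraries.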
